A study of Mus musculus with 6 samples.

Results

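Low oxygen leads cells to draw energy from glycolysis, and the switch is made largely by the hypoxia-inducible factors (HIFs). With oxygen present, prolyl hydroxylases mark the HIF alpha subunits for destruction through the von Hippel-Lindau protein. When oxygen is short, the alpha subunits persist, pair with ARNT and bind short DNA motifs beside genes for glucose uptake, glycolysis, lactate production and vessel growth. In the mammary gland the growing ducts depend on the surrounding fat pad and its vessels for oxygen. The genes described here are 10 well-known members of this programme, listed by symbol and found as 10 of the 55291 symbols of the count files. They include Slc2a1, the glucose transporter GLUT1, and Aldoa, Pgk1, Eno1 and Ldha, enzymes of glycolysis and lactate production. Pdk1 is a kinase that inhibits pyruvate dehydrogenase and so holds back the oxidation of pyruvate in mitochondria. Egln3 is a HIF prolyl hydroxylase, and Bnip3 is a mitochondrial protein that promotes mitophagy. Ankrd37 is an ankyrin repeat protein that HIF induces, and Vegfa is the secreted factor that drives vessel growth. All 10 passed the filter on low counts.

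RNA was sequenced from 6 libraries of sorted mammary cells, 2 for each label. All came from mammary glands of Adgra3-lz/+ mice aged 6 weeks, in which 1 allele of Adgra3, the gene of the adhesion receptor Gpr125, carries a lacZ reporter, so that controls and Gpr125+ cells have the same genotype and only 1 intact allele. For each sample both abdominal glands of 5 mice were pooled, cut at the lymph node into a distal part with the terminal end buds (TEBs) and a nipple-proximal part, and digested for 6 to 8 h at 37 °C. Cells positive for CD31, CD45 or Ter119 were removed, and CD49f-high cells were sorted as Gpr125+ or Gpr125-negative by cleavage of the beta-galactosidase substrate FDG. The labels read TEB-distal Gpr125+, nipple-proximal Gpr125+ and Gpr125-negative, and those of the last group give no region. The libraries are listed throughout as replicate 1 and then replicate 2. They are pools, so p-values measure the spread between pools.

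Total counts were between 20134890 and 37296640 per library, where 3 counts equal 0.0804 to 0.149 CPM, the count scaled to the TMM-adjusted library size, and every member stood far above that floor. Adgra3 itself went against the labels, with its highest mean in the libraries labelled Gpr125-negative. It was at 35.7 and 18.6 CPM in the libraries labelled Gpr125-negative, 15.0 and 4.83 CPM for TEB-distal and 19.2 and 12.3 CPM for nipple-proximal cells, so that the values of the first and last label overlapped (edgeR, TEB-distal against Gpr125-negative adjusted p = 0.982). Every direction given against this group is therefore a direction against the libraries labelled Gpr125-negative. Libraries of 1 label could also be far apart. The correlation of log2 CPM over all tested genes was 0.733 between both libraries labelled Gpr125-negative, 0.791 between the TEB-distal and 0.933 between the nipple-proximal libraries. Of the 9 basal (myoepithelial) markers, all were detected in every library, and their summed level was 3379 and 3501 CPM in the libraries labelled Gpr125-negative, 3804 and 21922 CPM for TEB-distal and 9278 and 14600 CPM for nipple-proximal cells. The 9 endothelial markers summed to 1350 and 833 CPM in the libraries labelled Gpr125-negative, although the sort removed CD31+ cells, to 12.98 and 20.3 CPM for TEB-distal cells, and to 223 and 23.4 CPM for nipple-proximal cells. Robo4 was at 0 in both TEB-distal libraries and Tek in nipple-proximal replicate 2. Fewer cells of a type and less RNA per cell cannot be told apart in such bulk samples.

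HIFs bind a core of ACGTG or GCGTG. The window of 250 bases before each RefSeq start site (GRCm38.p6) was searched for ACGTG on both strands, so a palindromic CACGTG counts on each. At 1 or more of its listed starts, 8 of the 10 members held it, all but Eno1 and Pdk1, whereas 16.6% of 32851 windows and 18.5% of 27025 genes held it. The other core, GCGTG, was in a window of 7 of the 10 and in 30.9% of all genes. These are matches of letters, not shown to be bound. For Slc2a1 the match lay 36 bases before the RefSeq start, across the start of the gene as GENCODE annotates it. For Vegfa the only match lay 211 bases before 1 listed start, in a window that begins within an annotated exon. The window before the other listed start of Vegfa held none. The 4 windows below all hold a match, and windows without one are not shown. Their genes mark patterns of the data. Ldha and Pgk1 were among the members that varied together across libraries. Bnip3 had the widest gap within a label and Egln3 the largest fold between labels. The sequences run 5′ to 3′ along the gene's strand, with each ACGTG or its reverse complement in capitals. The windows are chr7:46845554-46845803 (plus strand), chrX:106186850-106187099 (plus), chr7:138909520-138909756 (minus) and chr12:54203875-54204124 (minus).
Ldha: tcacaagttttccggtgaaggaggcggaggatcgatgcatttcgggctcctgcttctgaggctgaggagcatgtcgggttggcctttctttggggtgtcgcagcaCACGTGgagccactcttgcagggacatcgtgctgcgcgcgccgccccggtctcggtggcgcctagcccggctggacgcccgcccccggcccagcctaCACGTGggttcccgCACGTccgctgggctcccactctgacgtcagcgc
Pgk1: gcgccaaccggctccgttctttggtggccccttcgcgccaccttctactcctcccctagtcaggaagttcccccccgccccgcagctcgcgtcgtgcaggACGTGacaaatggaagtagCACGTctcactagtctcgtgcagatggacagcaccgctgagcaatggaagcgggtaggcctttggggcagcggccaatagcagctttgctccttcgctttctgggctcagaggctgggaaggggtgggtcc
Bnip3: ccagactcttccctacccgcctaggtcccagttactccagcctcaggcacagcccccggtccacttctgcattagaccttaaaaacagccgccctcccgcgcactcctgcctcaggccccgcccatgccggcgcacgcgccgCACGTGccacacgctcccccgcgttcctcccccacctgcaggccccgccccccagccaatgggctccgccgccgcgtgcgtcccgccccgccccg
Egln3: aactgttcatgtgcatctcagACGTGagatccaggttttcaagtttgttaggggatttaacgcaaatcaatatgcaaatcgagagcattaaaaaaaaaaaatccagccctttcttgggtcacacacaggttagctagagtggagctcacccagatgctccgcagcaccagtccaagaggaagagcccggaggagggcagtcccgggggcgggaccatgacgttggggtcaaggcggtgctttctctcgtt

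The Ldha window shown held 5 matches in 3 separate runs, at 2 of which the letters read CACGTG. The window before the other listed start of Ldha held none. Bnip3 held a CACGTG 108 bases before its start. Pgk1 held 2 matches 19 bases apart, on opposite strands, and Egln3 had a single one 229 bases before its start.

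**Figure D1:**
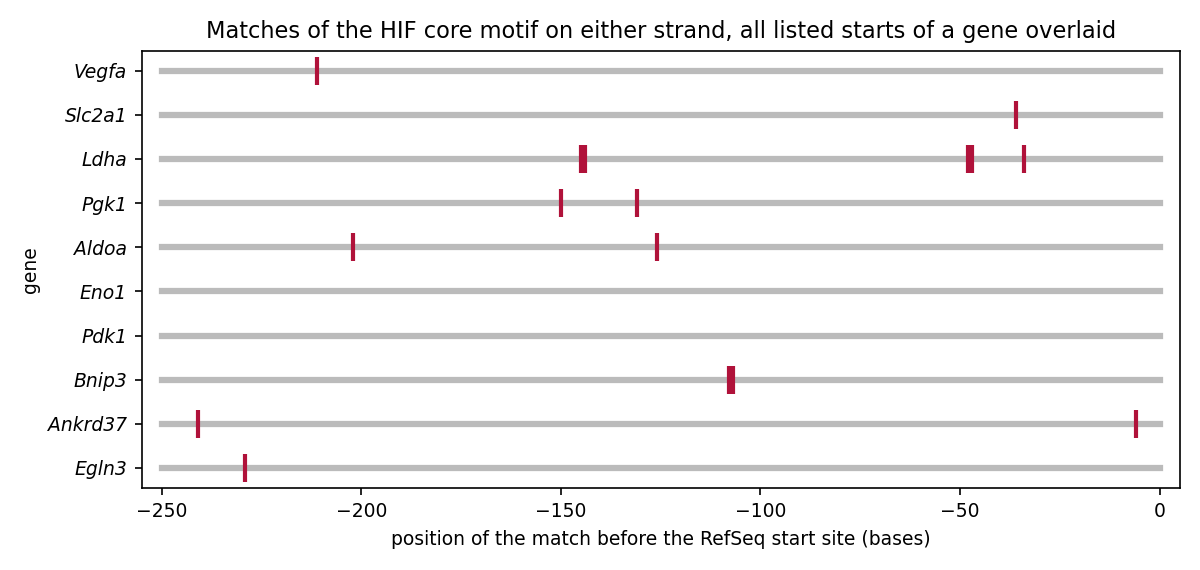
Positions of the core motif in the 250 bases before the RefSeq start sites of the 10 genes, in bases before the start, with matches on either strand as vertical marks and all listed starts of a gene laid over each other. Ldha has 3 separate runs and Eno1 and Pdk1 have none, and both marks of Aldoa are 1 site seen from 2 start sites.

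Across the libraries, the level of the programme was highest in nipple-proximal cells and lowest in Gpr125-negative replicate 1 or TEB-distal replicate 1. The lowest value of a member was in Gpr125-negative replicate 1 for 7 genes and in TEB-distal replicate 1 for 3. The highest was in a nipple-proximal library for 6 genes, 3 in each, in TEB-distal replicate 2 for 2 genes and in TEB-distal replicate 1 and Gpr125-negative replicate 2 for 1 gene each. Together the 10 genes summed to 8136 and 10376 CPM in the libraries labelled Gpr125-negative, 7238 and 20062 CPM for TEB-distal and 22676 and 23941 CPM for nipple-proximal cells. These sums follow the most abundant members. In nipple-proximal replicate 2, Aldoa, Slc2a1 and Ldha were at 7771, 5863 and 5223 CPM, and Pdk1 and Ankrd37 at 62.7 and 56.5 CPM.

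**Figure D2:**
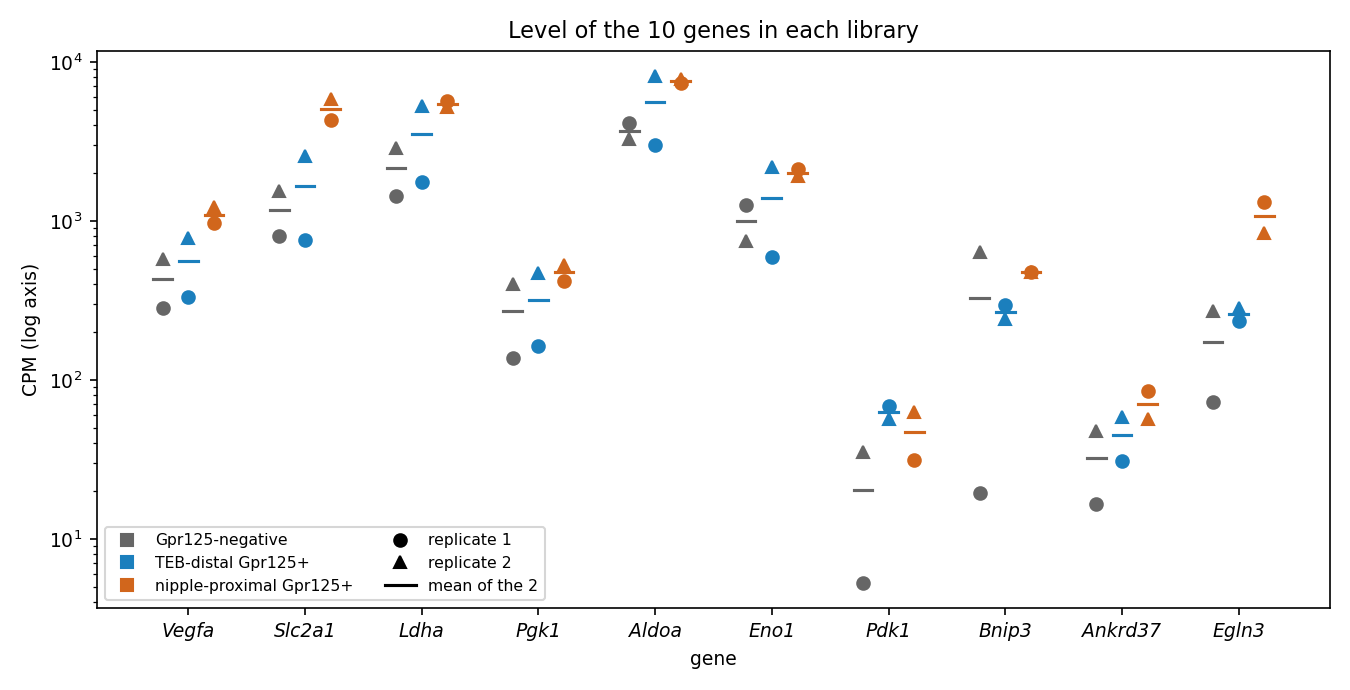
CPM of each gene (log axis) in the 6 libraries, with circles for replicate 1, triangles for replicate 2 and bars for the mean of both. The nipple-proximal values lie above both Gpr125-negative values for 8 genes, and the TEB-distal pair is wide apart from Vegfa to Eno1 and close for Pdk1, Bnip3 and Egln3.

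Positions below are those of GENCODE on GRCm38, where all 10 are protein-coding genes. Slc2a1 (chr4:119108711-119137983, plus strand) brings glucose into the cell. Its level was 798 and 1531 CPM in the libraries labelled Gpr125-negative, 761 and 2561 CPM for TEB-distal and 4286 and 5863 CPM for nipple-proximal cells. Both nipple-proximal libraries lay above the other four, with the group mean at 5075 ± 1115 CPM (SD, n = 2) against 1165 ± 519 CPM in the libraries labelled Gpr125-negative. That was a 4.36-fold difference (log2 2.12 ± 0.91 SE, unadjusted p = 0.0497, adjusted p = 1, edgeR). Its exons overlap the annotated gene Gm12868, and the counting ignored strand.

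Among the glycolytic enzymes, Aldoa (aldolase A, which splits a sugar phosphate; chr7:126795234-126800751, minus) was at 4119 and 3263 CPM in the libraries labelled Gpr125-negative, 2994 and 8130.2 CPM for TEB-distal and 7316 and 7771 CPM for nipple-proximal cells. TEB-distal replicate 2 was the highest and TEB-distal replicate 1 the lowest of all. Eno1 (enolase 1; chr4:150236721-150248879, plus) had the same extremes. It was at 1253 and 747 CPM in the libraries labelled Gpr125-negative, 593 and 2172 CPM for TEB-distal and 2103 and 1899.9 CPM for nipple-proximal cells. Eno1 is uncertain, because the near-identical genes Eno1b, Gm4735 and Gm5855 held counts of up to 29.9% of its own. Fam57b overlaps exons of Aldoa.

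Pgk1 (phosphoglycerate kinase 1, which makes ATP in glycolysis; chrX:106187100-106203699, plus) was at 138 and 402 CPM in the libraries labelled Gpr125-negative, 164 and 473 CPM for TEB-distal and 417 and 529.7 CPM for nipple-proximal cells. The TEB-distal and Gpr125-negative pairs were each nearly 3 times apart, and only TEB-distal replicate 2 overlapped the nipple-proximal range. Ldha (lactate dehydrogenase A, which turns pyruvate into lactate; chr7:46841475-46855627, plus) was at 1432 and 2863 CPM, 1765 and 5298 CPM, and 5681 and 5223 CPM in the 3 labels in the same order. Again TEB-distal replicate 2 was within the nipple-proximal range, and TEB-distal replicate 1 was within that of the libraries labelled Gpr125-negative. The 4 near-identical genes of Ldha held counts of at most 0.248% of its own, and those of Pgk1 at most 0.452%. For Pgk1 this share does not settle the matter. Its copies Gm5537 and Pgk1-rs7 were identical to it over 1252 and 1255 aligned bases, and a further copy had no count value. Low counts on identical copies do not show that the level of Pgk1 was unaffected by them, which was not tested.

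Pdk1 (pyruvate dehydrogenase kinase 1; chr2:71873224-71903858, plus) did not follow the enzymes. It was at 5.31 and 35.1 CPM in the libraries labelled Gpr125-negative, 68.9 and 57.1 CPM for TEB-distal and 31.5 and 62.7 CPM for nipple-proximal cells. It was the only member whose 2 TEB-distal values both lay above the libraries labelled Gpr125-negative, and its highest value was in TEB-distal replicate 1. The TEB-distal mean of 63.0 ± 8.35 CPM (SD, n = 2) was 3.12-fold that of the libraries labelled Gpr125-negative (log2 1.64 ± 0.94 SE, adjusted p = 0.931, edgeR).

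Of the genes that feed back on oxygen sensing or mitochondria, Egln3 (chr12:54178981-54203860, minus) was at 72.7 and 272 CPM in the libraries labelled Gpr125-negative, 233 and 285 CPM for TEB-distal and 1311 and 842 CPM for nipple-proximal cells. Both nipple-proximal values lay far above the other four, and the TEB-distal pair, unlike those of the glycolytic enzymes, was close together. The nipple-proximal mean of 1077 ± 332 CPM (SD, n = 2) was 6.25-fold that of the libraries labelled Gpr125-negative, the largest fold among the members (log2 2.64 ± 0.87 SE, unadjusted p = 0.0173, adjusted p = 1, edgeR). Against it the TEB-distal mean of 259 ± 36.3 CPM (SD, n = 2) was 4.16-fold lower (log2 -2.06 ± 0.85 SE, unadjusted p = 0.0442, adjusted p = 1, edgeR).

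Bnip3 (chr7:138890836-138909519, minus) was at 19.4 and 637 CPM in the libraries labelled Gpr125-negative, 294 and 241 CPM for TEB-distal and 475 and 474 CPM for nipple-proximal cells. The 32.8-fold gap between both libraries labelled Gpr125-negative spanned the values of all other libraries, so no direction against this label can be read for Bnip3. Both TEB-distal libraries lay below both nipple-proximal ones (1.78-fold lower, log2 -0.83 ± 1.27 SE, adjusted p = 1, edgeR). Its exons overlap Gm45507, and 4 near-identical genes held counts of up to 2.66% of its own.

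Ankrd37 (chr8:45996902-46005707, minus) had the lowest levels beside Pdk1, at 16.5 and 47.6 CPM in the libraries labelled Gpr125-negative, 31.0 and 58.5 CPM for TEB-distal and 85.3 and 56.5 CPM for nipple-proximal cells. Its exons overlap those of Lrp2bp and Ufsp2. Vegfa (chr17:46016993-46032369, minus) was at 283 and 577 CPM, 334 and 785 CPM, and 969 and 1219 CPM in the 3 labels in the same order. Vegfa was higher in both nipple-proximal libraries than in the other four, with a mean of 1094 ± 177 CPM (SD, n = 2) and a 2.54-fold difference from the libraries labelled Gpr125-negative (log2 1.35 ± 0.80 SE, adjusted p = 1, edgeR). For Ankrd37 the nipple-proximal libraries lay above those labelled Gpr125-negative but overlapped the TEB-distal range.

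Levels per kb of merged exon set genes beside each other only roughly, because the length counts the exons of all annotated transcripts. The places of Eno1 and Pgk1 are also uncertain because of their near-identical copies. The mean level in nipple-proximal cells was highest for Aldoa at 2592 CPM per kb, then Ldha at 1647 and Slc2a1 at 1447. Egln3 at 404, Eno1 at 372, Vegfa at 255, Pgk1 at 211 and Bnip3 at 209.7 CPM per kb came next. Ankrd37 was at 46.1 and Pdk1 at 6.05 CPM per kb. Neighbours whose ranges over both libraries overlapped were Ldha with Slc2a1, Egln3 with Eno1, Vegfa with Pgk1 and Pgk1 with Bnip3. In the libraries labelled Gpr125-negative the mean level of Egln3 was 64.7 CPM per kb. Its range there, 27.3 to 102 CPM per kb, overlapped those of Vegfa, Pgk1, Bnip3 and Ankrd37.

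In nipple-proximal cells against the libraries labelled Gpr125-negative, all 10 members were higher in the fit, by 1.45-fold for Bnip3 up to 6.25-fold for Egln3. The median log2 fold change was 1.18, beside -0.0032 over all 17268 genes tested. For 8 members, all but Pdk1 and Bnip3, both nipple-proximal libraries lay above both labelled Gpr125-negative, while 19.9% of all genes did so. No member passed the test at a false discovery rate (FDR) under 0.1 and 2-fold in edgeR or in DESeq2, and edgeR called 0% of all genes, where DESeq2 on all 6 libraries called 321. At an unadjusted p under 0.05, 2 members, Egln3 and Slc2a1, were higher, as were 2.62% of all genes. The side on which Slc2a1 lay depended on the setting. Its unadjusted p was 0.0622 without robust estimation and 0.0352 without a filter on low counts (edgeR). The common biological coefficient of variation was 0.967, and with 2 libraries per label an exact permutation test could not give a p below 0.333. Without Gpr125-negative replicate 1, 9 of the 10 members were above 0, and without Gpr125-negative replicate 2 all 10 were. The median was 0.79 without replicate 1, beside 0.40 over all genes in that fit, and 2.03 without replicate 2, beside 0.076.

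Most glycolysis and hypoxia genes outside the 10 lay on the same side. Of 18 other glycolysis genes, 15 were above 0 (median log2 1.18), and 13 had both nipple-proximal libraries above both labelled Gpr125-negative, beside 19.9% of all genes. First among them was Slc16a3, which encodes a lactate exporter (log2 2.17 ± 0.87 SE, unadjusted p = 0.0389, adjusted p = 1, edgeR). Next came Hk2, a hexokinase gene (2.19 ± 0.98), and Gpi1, glucose-6-phosphate isomerase (1.69 ± 0.87). Of 22 other hypoxia targets, 21 were above 0 (median 1.08), and 11 had both nipple-proximal libraries above both labelled Gpr125-negative. With each gene centred on its mean over all libraries, their median log2 CPM was -1.54 and 0.43 in the libraries labelled Gpr125-negative. For nipple-proximal cells it was 0.61 and 1.00, so most of the gap was to Gpr125-negative replicate 1. The first 3 were the carbonic anhydrase gene Car12 (2.06 ± 0.68), the secreted glycoprotein gene Stc2 (2.39 ± 0.91) and Ndrg1 (1.81 ± 0.74), with unadjusted p of 0.0168, 0.0312 and 0.0409 and adjusted p of 1 in edgeR.

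The oxygen sensors and the mitochondrial route showed less of this. Of 11 oxygen-sensing genes, 6 were above 0 (median log2 0.01), led by Egln1, the main HIF prolyl hydroxylase (1.81 ± 0.94), Vhl, the von Hippel-Lindau gene (1.08 ± 0.81), and Arnt, the HIF partner (0.83 ± 0.67). Of 27 genes of pyruvate oxidation and the TCA cycle, 10 were above 0 and 17 below (median -0.12). Pdk4, a further pyruvate dehydrogenase kinase (1.62 ± 0.68), Pdhx (-0.88 ± 0.87) and Cs, citrate synthase (0.56 ± 0.63), came first there. Among 9 genes of the VEGF system the median was -0.03, and the receptor genes Nrp2 (-1.68 ± 0.81), Flt4 (-2.75 ± 1.34) and Kdr (-2.73 ± 2.16) came first. Both nipple-proximal libraries lay below both labelled Gpr125-negative for Nrp2 and Flt4, but not for Kdr, at 0.323 and 13.8 CPM in the libraries labelled Gpr125-negative against 1.08 and 1.04 CPM for nipple-proximal cells. The 9 endothelial markers moved with this comparison too, with a median of -2.79, and the 9 basal markers had a median of 1.70. The part of either in the members' values was not tested.

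**Figure D3:**
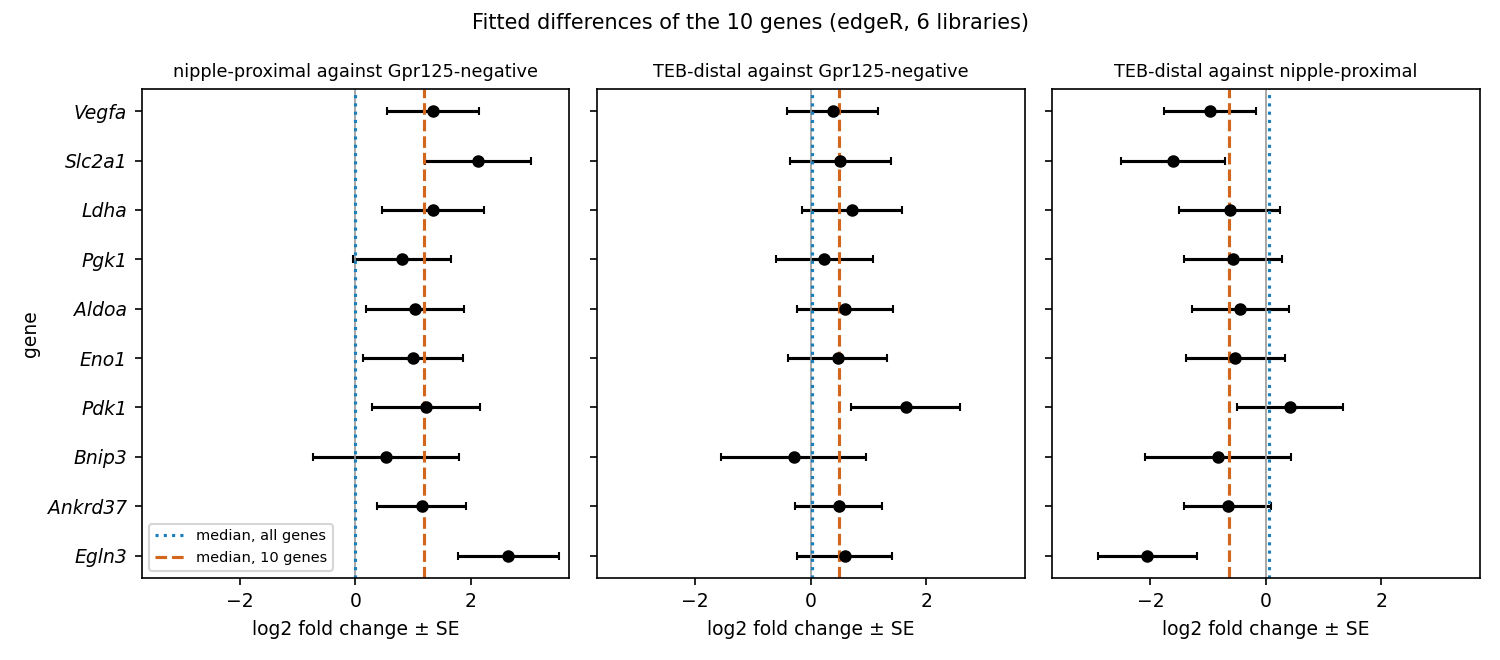
Fitted log2 fold changes with SE of the 10 genes in 3 comparisons of 2 libraries each, from 1 edgeR model of 6 libraries, with the median of the 10 genes (dashed) and of all tested genes (dotted). All 10 points lie above 0 for nipple-proximal against Gpr125-negative labels, and Egln3 and Slc2a1 lie farthest from 0 in the first and last panels.

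In TEB-distal cells against the libraries labelled Gpr125-negative, the members stood slightly higher on average and the TEB-distal libraries disagreed. In the fit 9 of 10 were above 0 and Bnip3 was below, with a median log2 fold change of 0.50 beside 0.03 over all genes. Both TEB-distal libraries lay above both labelled Gpr125-negative for Pdk1 alone, while 14% of all genes did so. No member passed the test in edgeR or DESeq2 or had an unadjusted p under 0.05, and edgeR called 0% of all genes, with 657 higher and 388 lower at that p and 943 called by DESeq2 on all 6 libraries. Without TEB-distal replicate 2 the median fell to -0.30, with 8 of the 10 genes below 0, and without Gpr125-negative replicate 1 it was -0.080, with 5 below. The medians over all genes in these fits were -0.17 and 0.38. In this comparison the basal markers had a median of 1.86, the fibroblast markers one of 2.01, with 7 of 7 above 0, and the endothelial markers one of -7.32, and their part in the members' values was not tested. This comparison shares its Gpr125-negative libraries with the one before and its TEB-distal libraries with the next.

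Of 18 other glycolysis genes, 15 were above 0 (median log2 0.39). The lowest unadjusted p-values were those of Pfkfb4 (-2.18 ± 1.48), Hk2 (1.41 ± 0.95) and Gpi1 (1.08 ± 0.86). Of 22 other hypoxia targets, 12 were above 0 (median 0.16), with Mxi1, a MYC antagonist gene (1.93 ± 0.71, unadjusted p = 0.0263, adjusted p = 0.803, edgeR), Lox, a collagen cross-linking enzyme gene (-6.50 ± 2.52), and Car12 (1.07 ± 0.67) first. Lox was at 0.108 and 22.8 CPM in the libraries labelled Gpr125-negative, against 0.0390 and 0.204 CPM for TEB-distal cells, so the mean of the libraries labelled Gpr125-negative rested on replicate 2, and DESeq2 on all 6 libraries called it (adjusted p = 0.0132). Of 11 oxygen-sensing genes 8 were below 0, with Hif3a (-6.25 ± 3.38; at 0 in both TEB-distal libraries and 1 labelled Gpr125-negative), the HIF asparaginyl hydroxylase gene Hif1an (-1.29 ± 0.72) and Egln1 (1.52 ± 0.93) first.

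Of 27 genes of pyruvate oxidation and the TCA cycle 22 were below 0, with a median of -0.21. Suclg2 (-1.43 ± 1.08) and Ogdh (-0.60 ± 0.65) were among the 3 with the smallest unadjusted p-values. In the VEGF system, Flt4, a receptor gene of lymphatic and other endothelium (-3.40 ± 1.38, unadjusted p = 0.0390, adjusted p = 0.811, edgeR), Nrp2 (-1.21 ± 0.80) and Kdr (-1.67 ± 2.08) came first, and DESeq2 on all 6 libraries called Flt4 (adjusted p = 0.0425). Both TEB-distal libraries lay below both labelled Gpr125-negative for Flt4 and Nrp2, whereas Kdr, at 4.25 and 0.204 CPM for TEB-distal cells, overlapped them. The endothelial markers moved with them, with 9 of 9 below 0. Their part in the receptor values was not tested.

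Between the regions, TEB-distal cells had lower levels than nipple-proximal cells for 9 of the 10 members, and Pdk1 was the exception. The median log2 fold change was -0.65, beside 0.06 over all genes. Both TEB-distal libraries lay below both nipple-proximal ones for 4 members, Vegfa, Slc2a1, Bnip3 and Egln3, while 18.3% of all genes did so. None passed the test in edgeR, which called 0% of all genes, where DESeq2 on all 6 libraries called 129. Egln3 was the 1 member with an unadjusted p under 0.05, beside 1.46% of all genes lower at that p. DESeq2 on the 4 libraries of the comparison called Egln3 (log2 -2.01 ± 0.63 SE, adjusted p = 0.0778) along with 1.07% of 15702 genes in the same direction, but DESeq2 on all 6 libraries called no member. Without TEB-distal replicate 1 the values of Ldha, Pgk1, Aldoa and Eno1 turned to 0.023, 0.066, 0.17 and 0.18 on the log2 scale and the median to -0.096, beside -0.093 over all genes in that fit, and without TEB-distal replicate 2 the median was -1.60, beside -0.11. The basal markers had a median of -0.28 in this comparison, the endothelial markers one of -2.86 and the 7 fibroblast markers one of 2.83, with 7 of 7 above 0. Their part was not tested.

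Of 18 other glycolysis genes 16 were lower in TEB-distal cells (median log2 -0.68), with Slc16a3 (-1.73 ± 0.86), the lactate and pyruvate transporter gene Slc16a1 (-2.23 ± 1.23) and Pfkm (2.07 ± 1.36) first. Of 22 other hypoxia targets 19 were lower (median -1.10), and 14 had both TEB-distal libraries below both nipple-proximal ones, as did 7 of the 18 other glycolysis genes and 18.3% of all genes. Ddit4, an inhibitor of mTORC1 signalling (-1.75 ± 0.68, unadjusted p = 0.0325, adjusted p = 1, edgeR), Ndrg1 (-1.66 ± 0.74) and Lox (-4.79 ± 2.34) came first there, and DESeq2 on 4 libraries called Lox (adjusted p = 0.0541). Lox was low in these libraries, at 0.0390 and 0.204 CPM for TEB-distal and 2.95 and 4.05 CPM for nipple-proximal cells. Its value in TEB-distal replicate 1 was below the level of 3 counts. Of 11 oxygen-sensing genes 9 were lower, led by Vhl (-1.92 ± 0.83), Hif3a (-6.60 ± 3.44) and Arnt (-1.09 ± 0.68). Hif3a was at 0 in both TEB-distal libraries and at 0.786 and 0.0471 CPM in the nipple-proximal ones. Its value therefore rested on nipple-proximal replicate 1, as replicate 2 was below the level of 3 counts. The genes of pyruvate oxidation and the TCA cycle had a median of -0.16, with Pdk4 (-1.42 ± 0.68), Suclg2 (-1.93 ± 1.09) and Cs (-0.85 ± 0.63) first. The VEGF system had a median of 0.36, and Flt1 (-1.52 ± 1.44), Pgf (-0.996 ± 0.997) and Vegfd (0.95 ± 1.49) had the smallest unadjusted p-values, of 0.321 or more.

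**Figure D4:**
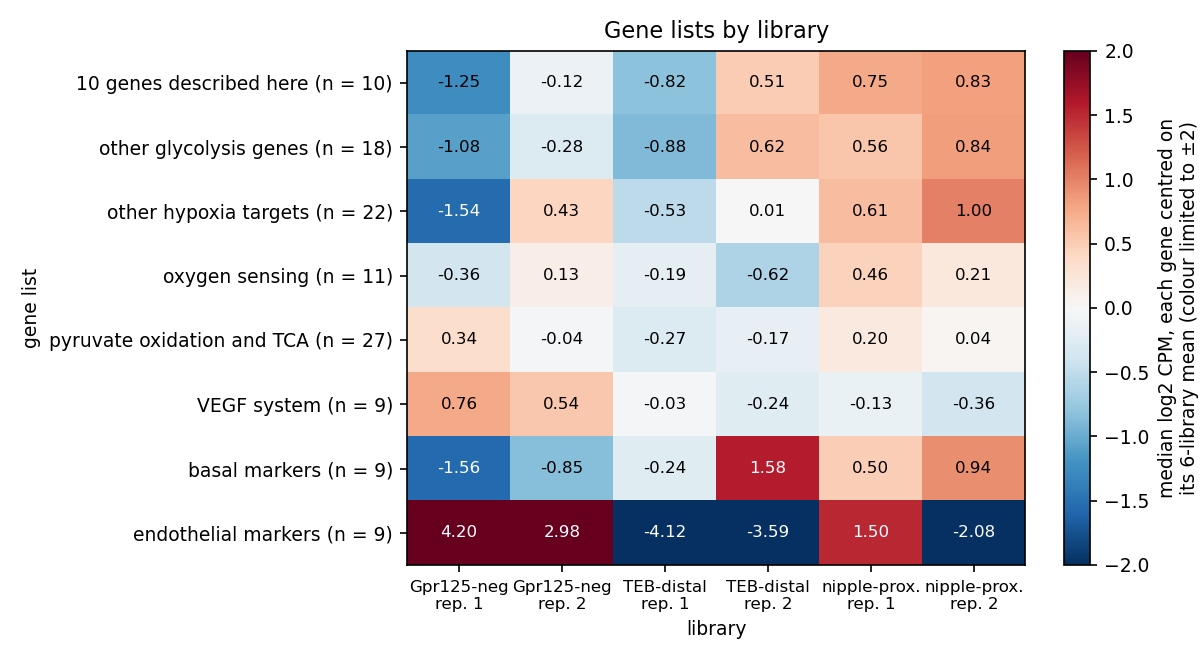
Median log2 CPM of the tested genes of each list, each gene centred on its mean over 6 libraries, for 2 libraries per label (columns). The 10 genes and the other glycolysis genes run from -1.25 and -1.08 in Gpr125-negative replicate 1 to 0.83 and 0.84 in nipple-proximal replicate 2, while the TCA list stays between -0.27 and 0.34.

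The libraries of a label differed by different members. The median ratio of the higher to the lower library over the members was 2.43 within the label Gpr125-negative, 2.53 within TEB-distal and 1.26 within nipple-proximal, where it was 3.13, 2.30 and 1.51 over all tested genes. In TEB-distal cells the gap was 2.35-fold for Vegfa, 3.37-fold for Slc2a1, 3.001-fold for Ldha, 2.89-fold for Pgk1, 2.72-fold for Aldoa and 3.66-fold for Eno1, always with replicate 2 higher. For Pdk1, Bnip3 and Egln3 it was 1.21-fold, 1.22-fold and 1.22-fold. The summed basal markers were also higher in TEB-distal replicate 2, and the mitochondrial share of counts was 3.15% in replicate 1 and 0.761% in replicate 2. The part of either was not tested. In the libraries labelled Gpr125-negative the widest gaps were in Bnip3, Pdk1 (6.60-fold) and Egln3 (3.74-fold), with replicate 2 higher, whereas Aldoa and Eno1 were higher in replicate 1. Their mitochondrial shares were 0.301% and 2.82%.

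**Figure D5:**
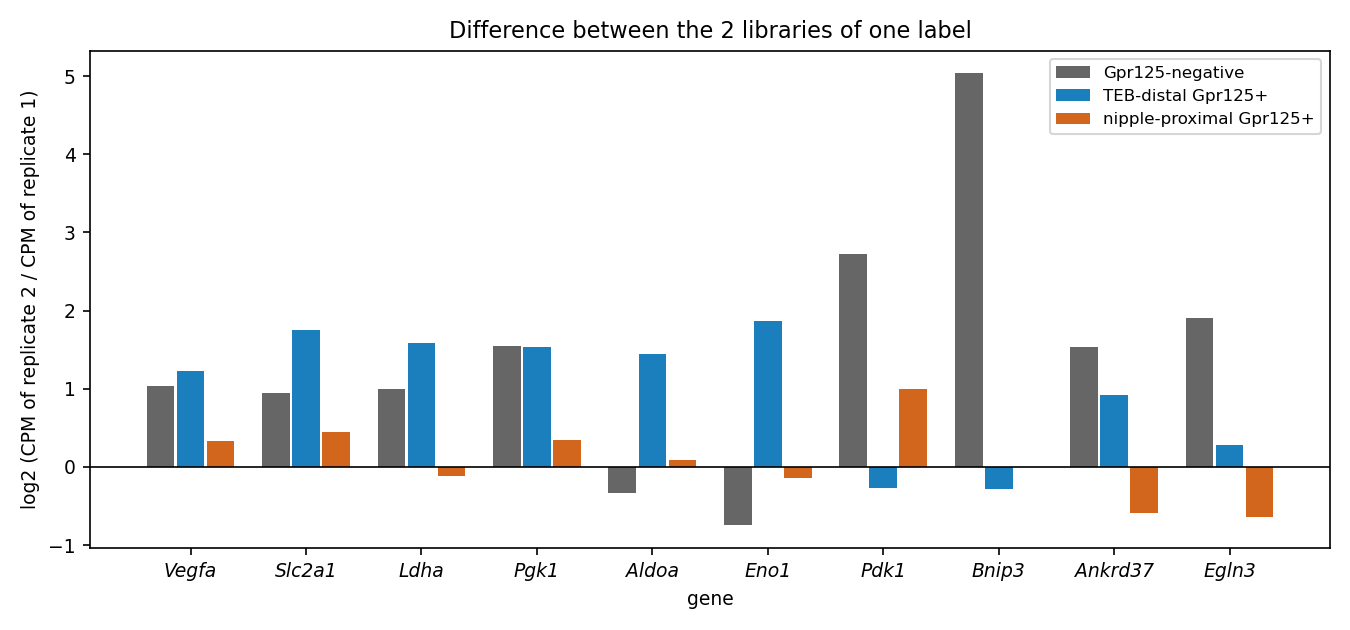
Log2 ratio of replicate 2 to replicate 1 for each of the 10 genes within each label. The TEB-distal bars are well above 0 from Vegfa to Eno1 and for Ankrd37 and near 0 for Pdk1, Bnip3 and Egln3, and the Gpr125-negative bar of Bnip3 stands for a 32.8-fold difference.

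Over the 6 libraries, which share these gaps, Vegfa followed Slc2a1 (log2 CPM, Pearson r = 0.985, Spearman rho = 0.943), Ldha (0.967 and 0.829) and Pgk1 (0.946 and 0.943), and Aldoa followed Eno1 (0.971 and 0.943). Bnip3 and Eno1 did not vary together (r = -0.005, rho = -0.143). These are descriptions over 6 points in 3 labels. The mean of the standardized values of the 10 genes was -1.27 and -0.14 for the label Gpr125-negative, -0.69 and 0.51 for the TEB-distal replicates and 0.77 and 0.83 for the nipple-proximal ones. The tested genes outside the 10 whose log2 CPM was most like this mean were Arih2 (r = 0.991), Gm12969 (0.987), Txnl4a (0.986), Hk2 (0.986) and Adm2 (0.985). Gm12969 was low throughout, with 5 to 30 counts per library (0.11 to 1.18 CPM). Hk2 was at 18.8 and 58.8 CPM in the libraries labelled Gpr125-negative, 32.6 and 173 CPM for TEB-distal and 144 and 209 CPM for nipple-proximal cells. Adm2, a peptide hormone gene of the adrenomedullin family, ranged from 0.65 to 18.83 CPM, and Arih2, a ubiquitin ligase gene, from 79.29 to 138.03 CPM, so the fold that accompanied a like pattern differed widely.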

How the data were processed

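RNA was measured in 6 libraries of sorted mouse mammary cells, made with the SMART-Seq HT low-input kit. The authors aligned reads to mm10 with STAR (version 2.7.3 in the submitters' processing notes, which also list CASAVA), counted them per gene with HTSeq without regard to strand, and deposited raw counts per gene symbol, with no normalization. Total counts were 20134890 to 37296640 per library. The libraries hold no molecular identifiers, so floors cover counting error only.

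Counts were fitted in R 4.3.3 with edgeR 4.0.16 (TMM, filterByExpr by group, robust quasi-likelihood F test, Benjamini-Hochberg over 17268 genes, FDR under 0.1 and at least 2-fold), all 6 libraries in 1 model of the 3 labels. Alternatives used DESeq2 1.42.0, which the authors also used, other normalizations, filters, sample sets and a replicate block. The script was tested on simulated data. CPM used TMM-adjusted library sizes, and log2 CPM a prior count of 2. Groups came from the sample titles. No 2 libraries held identical counts. Coordinates and exon lengths are from GENCODE M21 (GRCm38), near-identical genes (at least 95% identity over 200 bases) from blastn 2.17.0 of its transcripts, and promoters from RefSeq (GRCm38.p6), which matched all 10 genes.

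The members and all gene lists were chosen with earlier results of these data known. Named genes were all members, in each of 5 pathway lists the 3 genes with the smallest unadjusted p per comparison and any called, Adgra3, and the 5 genes most like the members' mean profile. One gene that this rule names is not reported here. Markers of other cell types were listed as well.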

Additional observations from a re-analysis of the deposited data

How the results depend on the processing

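No member passed the threshold in any of the 3 comparisons under any alternative, except Egln3 between regions in DESeq2 on 4 libraries. Of 480 member results, 461 kept their direction and side of the threshold. Those at an FDR under 0.05 and without robust estimation could not turn, because both keep the fold changes of the main fit. Counts over all genes depended strongly on the tool. In the order TEB-distal against Gpr125-negative, nipple-proximal against Gpr125-negative and TEB-distal against nipple-proximal, edgeR called 0, 0 and 0 genes, with 657, 453 and 129 higher and 388, 160 and 252 lower at an unadjusted p under 0.05. Without a filter on low counts it called 137, 58 and 39, and DESeq2 called 943, 321 and 129 on 6 libraries and 667, 317 and 360 on 4. Other pathway genes called were 2 (Lox and Flt4) and 1 (Lox) with DESeq2 on 6 and 4 libraries for TEB-distal against Gpr125-negative, and 1 (Lox) with DESeq2 on 4 libraries between regions. Leaving out each library gave 0 to 747, 0 to 335 and 0 to 12 called genes, the 747 and 335 without Gpr125-negative replicate 1, and 0 to 2 pathway genes for TEB-distal against Gpr125-negative (Lox and Pdk2 without that library). The median of the members then ran from -0.30 (without TEB-distal replicate 2) to 1.25, from 0.79 to 2.03 (without Gpr125-negative replicate 2) and from -1.60 (without TEB-distal replicate 2) to -0.10. An arm left with 1 library was assumed to vary like the other labels. Directions that turned in these fits, with ranges on the log2 scale, were, for TEB-distal against Gpr125-negative, Vegfa (-0.37 to 0.98), Slc2a1 (-0.62 to 1.11), Ldha (-0.29 to 1.29), Pgk1 (-0.73 to 1.20), Aldoa (-0.31 to 1.13), Eno1 (-0.76 to 1.12), Ankrd37 (-0.21 to 1.43), Egln3 (-0.20 to 1.83) and Bnip3 (-1.39 to 3.78). For nipple-proximal against Gpr125-negative only Bnip3 turned (-0.56 to 4.62), and between regions Ldha (-1.65 to 0.023), Pgk1 (-1.55 to 0.066), Aldoa (-1.35 to 0.17) and Eno1 (-1.77 to 0.18). The cause was not tested. Upper quartile normalization took the median of all genes between regions from 0.06 to 0.26 on the log2 scale, and neither it nor DESeq2 size factors turned a member. The replicate numbers were not shown to pair the libraries, as deviations of same-numbered libraries correlated at -0.03, 0.19 and -0.0049 in the 3 comparisons. A replicate block called no gene and turned Bnip3 in TEB-distal against Gpr125-negative libraries to 0.43.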

Other observations

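The glycolysis genes Gapdh, Tpi1 and Pkm and the vasodilator peptide gene Adm were singled out after their values were seen. Gapdh, which is often used as a reference gene, was at 1172 and 889.6 CPM in the libraries labelled Gpr125-negative, 799 and 3250.1 CPM in TEB-distal and 2306 and 2816 CPM in nipple-proximal libraries. Tpi1 was at 637 and 1048, 677 and 2876, and 2011 and 2520.3 CPM in the same order, and Pkm, the pyruvate kinase gene, at 4102 and 1923, 2190 and 5257, and 5293 and 5036 CPM. All of these were lower in TEB-distal replicate 1 than in TEB-distal replicate 2. Adm was at 315 and 888 CPM in the libraries labelled Gpr125-negative, 365 and 1493 CPM in TEB-distal and 1896 and 2405 CPM in nipple-proximal libraries, so both nipple-proximal values were the highest.

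Marker lists of other cells were also measured. Fabp4, the 1 adipocyte marker tested of 5, was at 672 and 631 CPM in the libraries labelled Gpr125-negative and at 1.51 to 23.5 CPM in the other four. The 6 erythroid markers summed to at most 1.32 CPM in any library. Over 2 libraries each for Gpr125-negative, TEB-distal and nipple-proximal labels, the summed levels were 92.6 and 113, 149 and 319, and 239 and 144 CPM for leukocyte markers, 28.6 and 145, 89.8 and 172, and 69.0 and 52.6 CPM for fibroblast markers, and 9.85 and 24.4, 5.26 and 1.67, and 2.90 and 22.8 CPM for pericyte markers. Luminal markers summed to 1445 to 2921 CPM and proliferation markers to 115 to 347 CPM over the 6 libraries.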
